A study of Mus musculus with 10 samples.

Results

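The 5 genes that encode the subunits of NF-κB, Nfkb1, Nfkb2, Rel, Rela and Relb, were examined for peaks of the p65 subunit itself. A peak was counted at a gene when it overlapped the gene body extended by 10 kb on each side by at least 1 bp, with gene positions from RefSeq on GRCm38.p6. These 5 genes are 5 of 21883 protein-coding genes, and their windows held 115 of the 235070 regions obtained by merging overlapping peaks of all libraries. The peak lists came from CUT&Tag, in which a transposase tethered to an antibody cuts out DNA next to the protein of interest for sequencing. RAW264.7 cells, a wild-type mouse macrophage line derived from tumors of a male mouse induced by Abelson murine leukemia virus, received for 12 h either the solvent DMSO, DMSO with lipopolysaccharide (LPS, a bacterial cell wall component), or LPS with skatole, a tryptophan metabolite. Each group had 3 libraries of 200000 cells. All groups share 1 cell line, and nothing in the labels says whether the 3 libraries of a group came from separate cultures, so p-values measure only the spread between these libraries. A Blank sample without primary antibody completes the 10 samples and was not analysed here. The labels name a p65 antibody and the study's methods an antibody against phosphorylated p65.

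NF-κB proteins bind DNA as dimers that share a Rel homology domain. Rela (p65), Rel (c-Rel) and Relb carry transactivation domains, whereas Nfkb1 and Nfkb2 encode the precursors p105 and p100, which are processed to the DNA-binding subunits p50 and p52 and whose ankyrin repeats also hold dimers in the cytoplasm. After activation of the LPS receptor, dimers with p65 enter the nucleus, bind κB sites and induce, among other genes, inhibitors and subunits of the pathway itself.

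Promoter windows of 300 bases, 250 before a start site and 50 from it on, were taken from a set based on RefSeq (GRCm38.p6). The set used here held windows for 3 of the 5 genes, Nfkb2, Rel and Rela, and none for Nfkb1 or Relb. Windows of these 3 genes are shown because each lies under a region with a p65 peak in all 9 libraries. Capitals mark matches to the 10-letter κB consensus, searched on both strands, and overlapping matches are capitalised together. The windows of Nfkb2 are chr19:46304487-46304786 (first) and chr19:46305445-46305744 (second), both on the plus strand. That of Rel is chr11:23770920-23771219 on the minus strand and that of Rela chr19:5637291-5637590 on the plus strand.
Nfkb2 first: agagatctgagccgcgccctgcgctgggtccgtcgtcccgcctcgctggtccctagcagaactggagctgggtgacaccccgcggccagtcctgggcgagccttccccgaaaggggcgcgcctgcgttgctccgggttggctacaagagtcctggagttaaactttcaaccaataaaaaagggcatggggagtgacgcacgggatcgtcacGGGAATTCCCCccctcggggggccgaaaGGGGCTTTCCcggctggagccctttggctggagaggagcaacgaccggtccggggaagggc
Nfkb2 second: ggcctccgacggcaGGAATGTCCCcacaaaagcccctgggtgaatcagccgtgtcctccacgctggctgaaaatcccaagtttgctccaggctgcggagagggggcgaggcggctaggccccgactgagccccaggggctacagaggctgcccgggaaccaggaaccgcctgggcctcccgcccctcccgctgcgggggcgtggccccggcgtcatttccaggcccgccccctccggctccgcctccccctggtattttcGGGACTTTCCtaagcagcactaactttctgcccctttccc
Rel: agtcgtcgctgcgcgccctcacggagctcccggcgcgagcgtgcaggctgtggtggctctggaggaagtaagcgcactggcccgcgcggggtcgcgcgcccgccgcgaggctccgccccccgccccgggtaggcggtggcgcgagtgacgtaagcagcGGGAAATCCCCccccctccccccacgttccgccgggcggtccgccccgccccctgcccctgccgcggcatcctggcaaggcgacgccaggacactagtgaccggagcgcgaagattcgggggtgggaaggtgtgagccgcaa
Rela: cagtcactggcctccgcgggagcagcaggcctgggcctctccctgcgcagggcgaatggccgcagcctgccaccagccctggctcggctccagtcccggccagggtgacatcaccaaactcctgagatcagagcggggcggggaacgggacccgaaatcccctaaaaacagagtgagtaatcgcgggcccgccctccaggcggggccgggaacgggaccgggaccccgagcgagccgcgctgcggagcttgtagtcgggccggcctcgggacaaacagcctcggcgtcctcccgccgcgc

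In the first Nfkb2 window, GGGAATTCCC began 39 bases and GGGGCTTTCC 11 bases before the start site. The second held GGAATGTCCC 236 bases before its start site, read on the opposite strand, and GGGACTTTCC from 10 bases after it. The third RefSeq window of Nfkb2 overlaps the second and holds the same GGGACTTTCC. In the Rel window, GGGAAATCCC began 92 bases before the start site. The Rela window held no match to these letters. Of all 32851 RefSeq promoter windows of this length in the set used, 4.51% held a match. The AP-1 motif TGANTCA was in the second Nfkb2 window only among these 4 and in 7.81% of all windows, and GAGGAAGT, a motif of the macrophage factor PU.1, was in the Rel window and in 3.20% of all windows. A match describes the sequence and does not show a bound site.

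The libraries differed in list length and depth. With DMSO 37551 to 43450 peaks were listed, with LPS 55637 to 63498 and with LPS+Skatole 78136 to 80153. Total reads were not used here. The genome background, in fragments per position, was 1.09 to 1.40 with DMSO, 2.23 to 2.34 with LPS and 2.26 to 2.39 with LPS+Skatole, and the lowest summit count in a list was 8 or 9 in DMSO and 11 in the other libraries. List length rose from group to group, while the genome background and the lowest summit count separated DMSO from the treated libraries only. The part of these measures in the numbers of peaks below was not tested. For several counts, values are also given after thinning all libraries to the lowest genome background or with lists of equal length. Thinning was a single random draw from the summit count of each listed peak. How far its counts vary between draws was not tested. Of 8 macrophage marker genes, 7 had a peak in their window in all 9 libraries, against 3 of 5 for T cells, 1 of 4 for B cells, 0 of 5 for chondrocytes or fibroblasts, 0 of 3 for liver and 54.2% of all protein-coding genes.

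The first comparison asked whether LPS changed the number of p65 peaks at the genes of its own family. Summed over the 5 windows there were 24, 18 and 29 peaks with DMSO, 45, 47 and 48 with LPS, and 51, 44 and 45 with LPS+Skatole. In the lists as deposited, both LPS-treated groups lay above the DMSO libraries without overlap and overlapped each other. With every list cut to the length of the shortest, the sums were 24, 18 and 27 with DMSO, 32, 35 and 33 with LPS, and 27, 26 and 25 with LPS+Skatole, so that LPS+Skatole overlapped DMSO and lay below LPS without overlap. The means were 23.7 ± 5.51 (SD, n = 3), 46.7 ± 1.53 and 46.7 ± 3.79 peaks. The ratio of LPS to DMSO was 1.97. It was 1.51 with all libraries thinned to the same background, 1.45 with lists of equal length and 1.35 per 10000 peaks of the list. The ratio of LPS+Skatole to DMSO was also 1.97, and became 1.55, 1.13 and 1.006 under the same 3 settings. That of LPS+Skatole to LPS was 1.0 as deposited, 1.03 after thinning, 0.780 with lists of equal length and 0.747 per 10000 peaks. Per 100 kb, the 5 windows held 8.25 peaks with DMSO, 16.3 with LPS and 16.3 with LPS+Skatole, compared with 3.15, 4.40 and 5.44 for all protein-coding genes.

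Nfkb1, which encodes p105 and p50, had the most peaks of the 5 genes in every library, in the longest window (127 kb, against 30.7 to 54.1 kb). Per 100 kb with DMSO, Nfkb2 (10.6 peaks) and Rel (8.62) exceeded Nfkb1 (8.12). Its window on chr3 (gene body 135584655 to 135691969, transcribed from the upper end) held 10, 9 and 12 peaks in DMSO, 27, 24 and 26 in LPS, and 29, 25 and 22 in LPS+Skatole libraries. All LPS and LPS+Skatole libraries were above all DMSO libraries. The ratio of LPS to DMSO was 2.48 (exact permutation test, two-sided, p = 0.1, the smallest that 3 libraries against 3 can give, and adjusted p = 0.893 over all genes). Thinned to the same background, the window held 10, 9 and 11 peaks in DMSO, 17, 19 and 19 in LPS, and 24, 20 and 16 in LPS+Skatole libraries, still without overlap with DMSO. Between LPS+Skatole and LPS the numbers overlapped, with a difference of -0.33 peaks (exact permutation test, p = 1). Per 10000 peaks of the list the order differed. The value was 2.55 ± 0.440 with DMSO, 4.36 ± 0.428 with LPS and 3.21 ± 0.471 with LPS+Skatole (SD, n = 3 each), so that LPS+Skatole lay below LPS without overlap and overlapped DMSO. With lists of equal length, by contrast, the window held 10, 9 and 11 peaks in DMSO and 20, 17 and 17 in LPS libraries. The LPS+Skatole libraries then held 18, 15 and 12, above DMSO without overlap and overlapping LPS.

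The density of peaks at Nfkb1 was compared with that of the 2224 protein-coding windows at least as long, itself included. In DMSO libraries 47, 97 and 27 windows were as dense or denser. In each of the 3 LPS libraries this number was 1, which is Nfkb1 itself, and in the LPS+Skatole libraries it was 1, 8 and 19. The window held 18.9 to 21.2 peaks per 100 kb in LPS libraries, where the median of these windows was 1.40 to 1.67.

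Rel, the gene of c-Rel (chr11, 23736847 to 23770969, transcribed from the upper end), held 5, 3 and 6 peaks in DMSO, 7, 9 and 10 in LPS, and 9, 10 and 10 in LPS+Skatole libraries. The treated libraries were all above the DMSO libraries, with a ratio of 1.86 for LPS to DMSO (exact permutation test, p = 0.1). This separation was not kept after thinning or with equal list length, where the LPS and DMSO libraries overlapped (exact permutation test, p = 0.5 in both). Rela, the gene of p65 (chr19, 5637442 to 5648134), held 2, 2 and 3 peaks in DMSO, 2, 6 and 3 in LPS, and 6, 4 and 5 in LPS+Skatole libraries. Its LPS libraries overlapped both other groups, and LPS+Skatole exceeded DMSO without overlap at a ratio of 2.14, a difference that turned to -0.33 peaks with lists of equal length. Within the Rela gene body alone these 2 groups overlapped, with 1, 1 and 2 peaks in DMSO and 2, 2 and 1 in LPS+Skatole libraries.

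Nfkb2, which encodes p100 and p52 (chr19, 46300994 to 46312400), held 5, 2 and 3 peaks in DMSO, 7, 5 and 5 in LPS, and 3, 2 and 4 in LPS+Skatole libraries. In the lists as deposited it was the only one of the 5 genes with fewer peaks in every LPS+Skatole than in every LPS library, at a ratio of 0.529 (exact permutation test, p = 0.1, adjusted p = 1 over all genes). The separation held after thinning (6, 4 and 5 against 3, 2 and 3) but not with lists of equal length (5, 3 and 5 against 2, 2 and 3) or with peaks of a −log10 p of at least 10 only (5, 3 and 5 against 3, 2 and 3), where the lowest LPS library equalled the highest LPS+Skatole one. Within the gene body alone the numbers were 1, 1 and 1, then 2, 2 and 1, then 1, 1 and 1 in the 3 groups. All other peaks of the window in the treated libraries, 12 with LPS and 6 with LPS+Skatole, lay on its upper side and overlapped the neighbouring gene Psd. Relb, whose product pairs mainly with p52 (chr7, 19606217 to 19629438, transcribed from the upper end), held 2, 2 and 5 peaks in DMSO, 2, 3 and 4 in LPS, and 4, 3 and 4 in LPS+Skatole libraries, and all 3 groups overlapped.

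Thus 2 of the 5 genes, Nfkb1 and Rel, were higher in every LPS than in every DMSO library, where 10.9% of all genes were, and 0 were lower, where 0.324% were. For LPS+Skatole against LPS, 0 genes were higher (8.11% of all genes) and 1, Nfkb2, was lower (0.69% of all genes). For LPS+Skatole against DMSO, 3 genes were higher (22.7% of all genes) and 0 lower (0.155%). Per 10000 peaks of the list, 1 gene, Nfkb1, was higher in LPS than in DMSO (4.77% of all genes) and 0 were lower (7.01%). By that measure 0 genes were higher in LPS+Skatole than in LPS (4.24%) and 2, Nfkb1 and Nfkb2, were lower (9.09%), while against DMSO 0 were higher (6.16%) and 0 lower (11.8%).

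**Figure D1:**
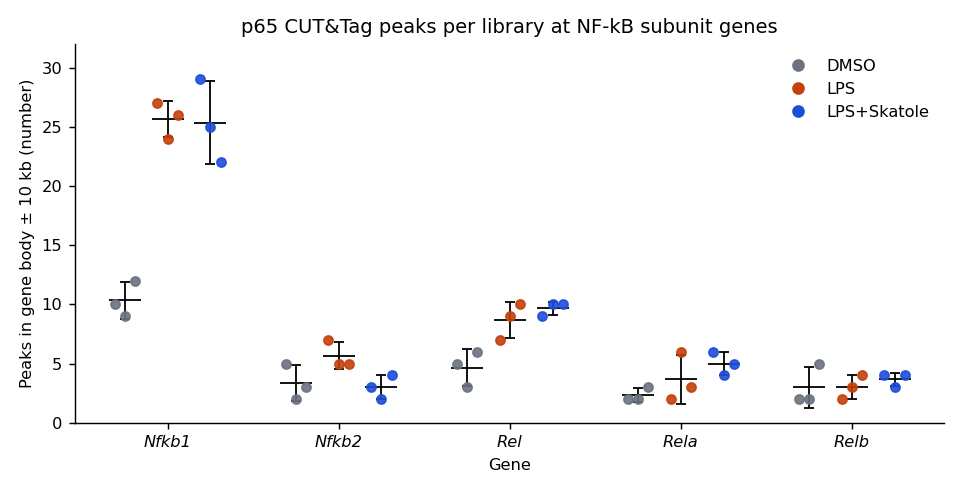
Number of p65 peaks per library (vertical axis) in the window of each gene (horizontal axis) for the DMSO, LPS and LPS+Skatole groups. Points are single libraries, horizontal bars means and whiskers SD (n = 3); Nfkb1 went from 9 to 12 peaks in DMSO to 24 to 27 in LPS and 22 to 29 in LPS+Skatole libraries, while Relb stayed at 2 to 5.

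The regions behind these numbers were then followed across libraries. Of the 115 regions, 14 (12.2%) had a peak in all 9 libraries and 67 (58.3%) in 1 library, against 5.88% and 71.3% of all regions. The 14 shared regions comprised 5 at Nfkb1, 3 at Rel, and 2 each at Nfkb2, Rela and Relb. For LPS against DMSO, 5 regions were gained, that is, present in all 3 LPS and 0 DMSO libraries, of 82 regions with a peak in either group (1.65% of all regions), and 0 were lost (0.0685%). For LPS+Skatole against LPS, 0 of 106 regions were gained (0.583%) and 0 were lost (0.129%). For LPS+Skatole against DMSO, 4 of 83 were gained (2.36%) and 0 were lost (0.0434%). Absence from a list means that no summit reached the threshold of that library, not that no fragment was there.

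All 4 regions gained under LPS+Skatole and 4 of the 5 gained under LPS lay within the body of Nfkb1. Only 6 of 21883 genes had as many as 4 regions gained under LPS, and 4 of these 6 had a window at least as long as that of Nfkb1. Under LPS+Skatole 47 genes had as many as 4. The region chr3:135639604-135641732, its median summit 51549 bp inside the 5′ end, had summit counts of 42, 57 and 46 in LPS and 40, 61 and 46 in LPS+Skatole libraries. The region chr3:135658220-135659781 had 18, 29 and 42 in LPS and 49, 45 and 25 in LPS+Skatole libraries. These 2 regions and chr3:135671625-135673820, with 36, 18 and 30 in LPS and 44, 46 and 42 in LPS+Skatole libraries, were gained against DMSO in both treated groups.

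The region chr3:135674326-135675848 had summit counts of 24, 42 and 31 in LPS libraries and of 29 and 40 in LPS+Skatole replicates 1 and 2, with no peak in replicate 3. The region chr3:135586259-135587062, near the 3′ end of Nfkb1, was gained only under LPS+Skatole, with counts of 28, 17 and 25, and had a peak with a count of 18 in LPS replicate 3. The fifth region gained under LPS was chr11:23733403-23735370, beyond the 3′ end of Rel, with counts of 35, 23 and 18 in LPS libraries and of 13 and 23 in LPS+Skatole replicates 2 and 3. The summits in this merged region spread over 1924 bp. With all libraries thinned to the same background, 2 regions were gained under LPS, both at Nfkb1 (1.46% of all regions), and 3 under LPS+Skatole, all at Nfkb1 (2.48% of all regions). With lists of equal length, 4 were gained under LPS, all at Nfkb1 and none at Rel (1.54% of all regions). The same held for regions built from summits extended by 250 bp (1.66%). With a −log10 p of at least 10, 6 were gained under LPS, 4 of them at Nfkb1 (2.92%).

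**Figure D2:**
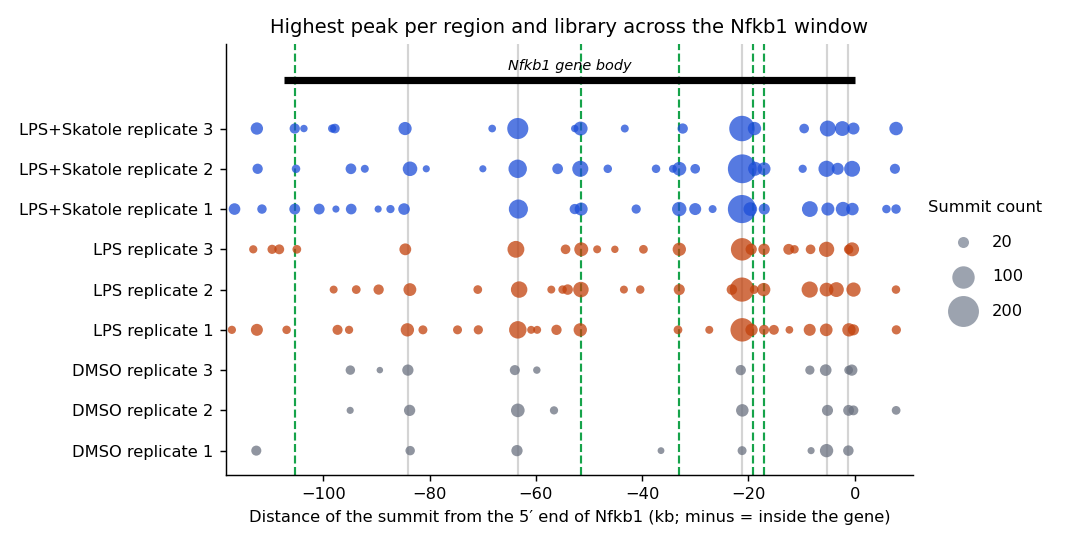
Highest peak of each region across the Nfkb1 window, one row per library (vertical axis), by distance of the summit from the 5′ end of the gene in kb (horizontal axis, minus values inside the gene). Dot area is proportional to the summit count, gray lines mark the 5 regions present in all 9 libraries and dashed green lines the 5 regions gained in a treated group; the largest dots, 119 to 196 fragments in the treated libraries, lie 21.2 kb inside the gene.

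Peak height was compared at the regions present in all 9 libraries, since there every library gives a value. The summit count, the number of fragments over the highest point, was divided by the median of its library over the 13824 such regions and tested on a log2 scale with limma across all of them. In Nfkb1, the region chr3:135669320-135671256, whose median summit lies 21.2 kb inside the 5′ end, had summit counts of 19, 37 and 25 in DMSO, 130, 138 and 119 in LPS, and 187, 196 and 153 in LPS+Skatole libraries. Every treated library, at 119 or more, was above the highest DMSO library, at 37. The scaled signal was higher in LPS than in DMSO by 1.66 on the log2 scale (SE 0.235, 95% interval 1.16 to 2.16, limma adjusted p = 0.00535). It ranked 14 among 13824 regions by this difference.

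The same region was higher in LPS+Skatole than in DMSO by 1.82 (limma adjusted p = 0.00187). Between LPS+Skatole and LPS the difference was 0.16 (95% interval -0.34 to 0.66, limma adjusted p = 0.852), and it ran from 0.0571 (without LPS replicate 3) to 0.280 (without LPS+Skatole replicate 3) without single libraries. With scaling by the genome background it was 0.44 (limma adjusted p = 0.329), and every LPS+Skatole library then lay above every LPS library, with means of 76.8 and 56.5 times the background. With the authors' fold in place of the summit count, the difference between LPS and DMSO was 1.31 and no longer passed (limma adjusted p = 0.107), while that between LPS+Skatole and DMSO did (1.47, limma adjusted p = 0.0394). The local background at this region was 2.99, 3.02 and 1.61 times the genome background with DMSO and 2.88 to 3.04 times in the treated libraries, and the fold includes it. Within its own list the peak stood at percentile 32.8, 71.7 and 64.4 of all peaks by p-value in DMSO, at 97.2, 97.8 and 95.9 in LPS, and at 98.8, 99.1 and 97.5 in LPS+Skatole libraries. Its summit stayed within 292 bp over the 9 libraries.

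This was 1 of the 14 shared regions called higher in LPS than in DMSO, where 0.456% of all regions were higher and 0.094% lower. In LPS+Skatole against DMSO it was again 1 of 14 (2.65% higher and 1.66% lower of all regions). In LPS+Skatole against LPS 0 of 14 were called (0% of all regions in either direction with median scaling), with 1 of 14 and 1358 of 13824 at an unadjusted limma p under 0.05. With a prior variance that follows the mean (limma-trend), 0 of the 14 and 34 of all regions were called in that comparison. Scaling by the genome background in place of the median moves the median of all regions to -0.24 in LPS against DMSO and to 0.24 in LPS+Skatole against LPS. The calls over all regions then became 38 higher and 78 lower in LPS against DMSO, in place of 63 and 13, and 34 higher and 0 lower in LPS+Skatole against LPS, while the calls among the 14 kept their number (1 and 0). The median of the 14 regions was -0.02, -0.15 and -0.11 in the 3 comparisons, beside -0.04, -0.04 and -0.09 over all regions.

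In each DMSO library, the regions at the 5′ end of Relb and at the start sites of Nfkb2 and Rel had the highest summit counts of the 14. Summit counts include the local background, which at the Nfkb2 region was 43.7 to 46.6 times the genome background over the 9 libraries. The authors' fold there was 3.01 to 3.97. At the Rel region the local background was 1.14 to 1.21 times the genome background and the fold 38.8 to 52.2. At Relb, chr7:19628029-19630538 had summit counts of 259, 291 and 382 in DMSO, 443, 428 and 491 in LPS, and 459, 467 and 488 in LPS+Skatole libraries. At Nfkb2, chr19:46303559-46306418, which covers the Nfkb2 promoter windows shown above, had 171, 247 and 207, then 390, 328 and 354, then 338, 411 and 329. This Nfkb2 region also overlaps a promoter window of the gene 4833438C02Rik. The treated libraries were higher in raw counts at both regions, as in the median of all regions, so the scaled values are the ones compared.

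The scaled signal differed between LPS and DMSO by -0.08 at Relb (limma adjusted p = 0.912) and 0.14 at Nfkb2 (limma adjusted p = 0.828). Between LPS+Skatole and LPS the differences were -0.25 (95% interval -0.69 to 0.19) and -0.30 (95% interval -0.75 to 0.15), with limma adjusted p of 0.718 and 0.664. Neither region passed the test in any comparison. Without single libraries, the Nfkb2 difference ran from 0.0568 to 0.215 for LPS against DMSO and from -0.415 to -0.215 for LPS+Skatole against LPS.

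At Rel, chr11:23767658-23773074 around the start site had summit counts of 92, 123 and 110 in DMSO, 191, 138 and 147 in LPS, and 168, 154 and 174 in LPS+Skatole libraries. At Rela, chr19:5635917-5638532 had 45, 61 and 68, then 84, 74 and 110, then 71, 85 and 104. On the scaled measure LPS against DMSO gave -0.10 at Rel and -0.02 at Rela, and LPS+Skatole against LPS gave -0.23 (95% interval -0.69 to 0.22) and -0.35 (95% interval -0.83 to 0.13), with limma adjusted p of at least 0.634 in all 4. Without single libraries, LPS+Skatole against LPS ran from -0.326 to -0.0716 at Rel and from -0.473 to -0.216 at Rela. LPS against DMSO at Rel ran from -0.264 to -0.0097. The Rel peak stood at percentile 98.8 or above of its list in all 9 libraries, and the Rela peak at 92.4 to 97.9. On the scaled measure every LPS+Skatole library lay below every LPS library at 3 of the 14 regions (9.92% of all shared regions), those at the 5′ end of Relb, at the Rel start site and at Clasrp near Relb. At Relb the scaled values were 5.74 to 5.95 against 6.79 to 7.12, and at Rel 1.95 to 2.12 against 2.13 to 3.03. With scaling by the genome background the sign turned at both (0.0289 and 0.0449). With median scaling, no region of the 14 was higher without overlap in this comparison (6.67%). In LPS against DMSO, 2 were higher and 0 lower (8.77% and 10.5% of all shared regions), and in LPS+Skatole against DMSO 3 were higher and 2 lower (10.5% and 15.7%). These counts depend on the scaling. With the summit count divided by the genome background, 1 region was higher and 1 lower in LPS against DMSO (4.22% and 23.6% of all shared regions), 3 were higher and 0 lower in LPS+Skatole against LPS (22.9% and 1.75%), and 3 were higher and 2 lower in LPS+Skatole against DMSO (13.3% and 11.5%).

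**Figure D3:**
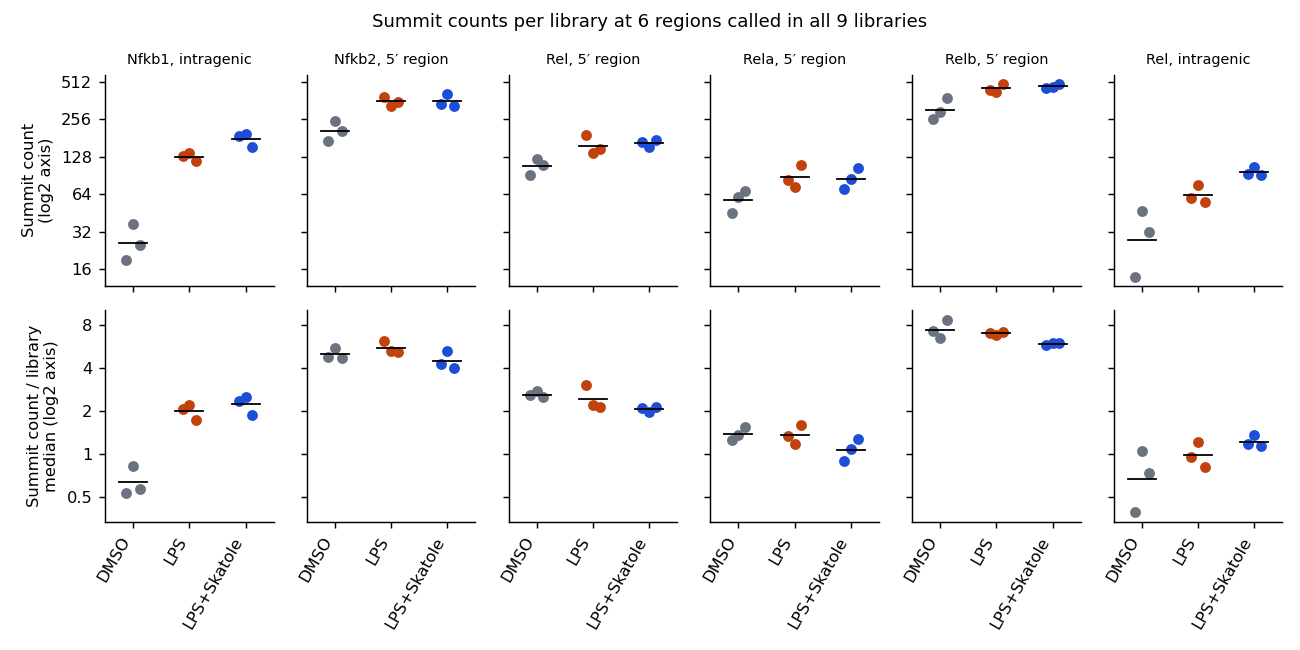
Summit counts at 6 regions present in all 9 libraries, as counts (upper row) and divided by the median of the library over all 13824 shared regions (lower row), both on log2 axes. Points are single libraries, bars geometric means (n = 3); the intragenic Nfkb1 region rises from 19 to 37 fragments in DMSO to 119 or more in all treated libraries, and in the lower row LPS+Skatole lies below LPS without overlap at Relb and at the Rel start site, where genome background scaling turns the sign.

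Within Rel, the intragenic region chr11:23752223-23755222, 16.6 kb inside the 5′ end, had summit counts of 14, 47 and 32 in DMSO, 60, 76 and 56 in LPS, and 94, 107 and 92 in LPS+Skatole libraries. The low value of DMSO replicate 1 widens the spread of that group. The scaled signal differed from DMSO by 0.55 in LPS (95% interval -0.10 to 1.21, limma adjusted p = 0.467) and by 0.87 in LPS+Skatole (95% interval 0.21 to 1.52, limma adjusted p = 0.118), so neither passed. Without single libraries these ran from 0.165 (without DMSO replicate 1) to 0.877 (without DMSO replicate 2) and from 0.477 to 1.19. A second Nfkb1 region, chr3:135627741-135630766, had 30, 44 and 24, then 72, 64 and 67, then 86, 80 and 105. Its differences from DMSO were 0.45 in LPS and 0.55 in LPS+Skatole (limma adjusted p = 0.453 and 0.198), which ran from 0.205 (without DMSO replicate 3) to 0.626 and from 0.307 to 0.728 without single libraries. With the authors' fold in place of the summit count, the sign of the difference between LPS and DMSO turned at this region.

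The remaining 7 shared regions did not pass in any comparison. Those at Nfkb1 were chr3:135606901-135609984, chr3:135684972-135687919 and chr3:135688345-135691043, with summit counts of 18 to 42 in DMSO, 21 to 55 in LPS and 32 to 62 in LPS+Skatole libraries. The region chr3:135606901-135609984 overlaps a promoter window of the gene Gm46827. Rel held chr11:23762432-23763480, with 25, 26 and 41, then 28, 33 and 52, then 72, 47 and 51. At neighbouring genes within the windows lay chr19:46318217-46320335 in Psd near Nfkb2 and chr7:19604364-19605134 at the promoter of Clasrp near Relb, and chr19:5648937-5650242 lay beyond the 3′ end of Rela. The Psd region had 16, 24 and 23, then 48, 30 and 23, then 51, 29 and 41, and the region beyond Rela 33, 96 and 61, then 98, 100 and 139, then 133, 95 and 115. At the region beyond Rela the local background was 4.29 to 26.7 times the genome background, and the authors' fold 1.66 to 9.78. The Clasrp region had 43, 49 and 44 in DMSO, 80, 77 and 99 in LPS, and 72, 83 and 72 in LPS+Skatole libraries. Its scaled signal was lower in LPS+Skatole than in LPS by -0.47 with an adjusted p of 0.477 (limma), and it was the 1 region of the 14 at an unadjusted p under 0.05 in that comparison.

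**Figure D4:**
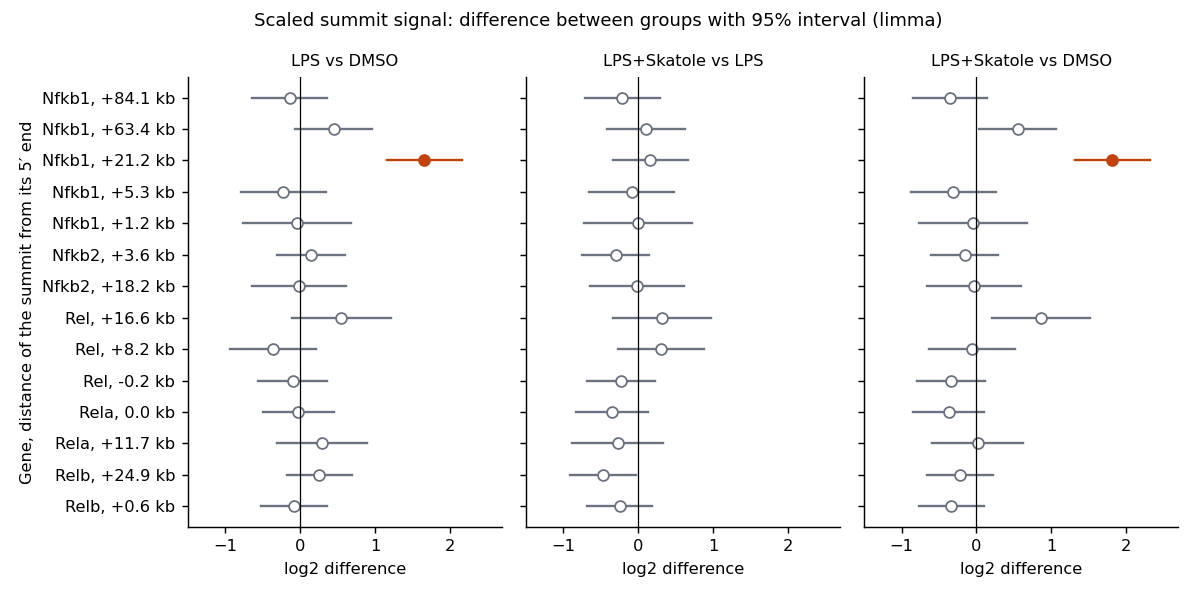
Difference in scaled summit signal (log2, horizontal axis) at the 14 regions present in all 9 libraries (vertical axis, gene and distance of the summit from its 5′ end) for the 3 comparisons. Lines are 95% intervals from limma and filled symbols have an adjusted p under 0.05; the Nfkb1 region 21.2 kb inside the gene is filled in both comparisons with DMSO, at 1.66 (LPS) and 1.82 (LPS+Skatole), and no symbol is filled for LPS+Skatole against LPS.

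At the start sites of Nfkb2, Rel and Rela the summit positions of the groups overlapped. At Nfkb2 the summit lay 105 to 179 bases before the first start site in all 9 libraries, within the first window and 66 to 140 bases from the first base of the nearest κB match, GGGAATTCCC. At Rel it lay 141 to 321 bases before the start site and 49 to 229 bases from GGGAAATCCC. At Rela it lay 63 to 127 bases before the start site in 8 libraries and 388 in LPS+Skatole replicate 3. Among the 14 shared regions, the positions did not overlap at 0 in LPS against DMSO (9.58% of all shared regions), 1 in LPS+Skatole against LPS (9.13%) and 1 in LPS+Skatole against DMSO (10.2%). The latter was chr3:135688345-135691043 in Nfkb1, with summits 1154 to 1207 bp inside the 5′ end with DMSO, 1095, 3457 and 1153 bp with LPS, and 2215 to 3211 bp with LPS+Skatole. The other was chr11:23762432-23763480 in Rel, at 8034 to 8166 bp with LPS+Skatole against 8192 to 8284 bp with LPS, while the DMSO summits, at 7762 to 8231 bp, overlapped both.

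**Figure D5:**
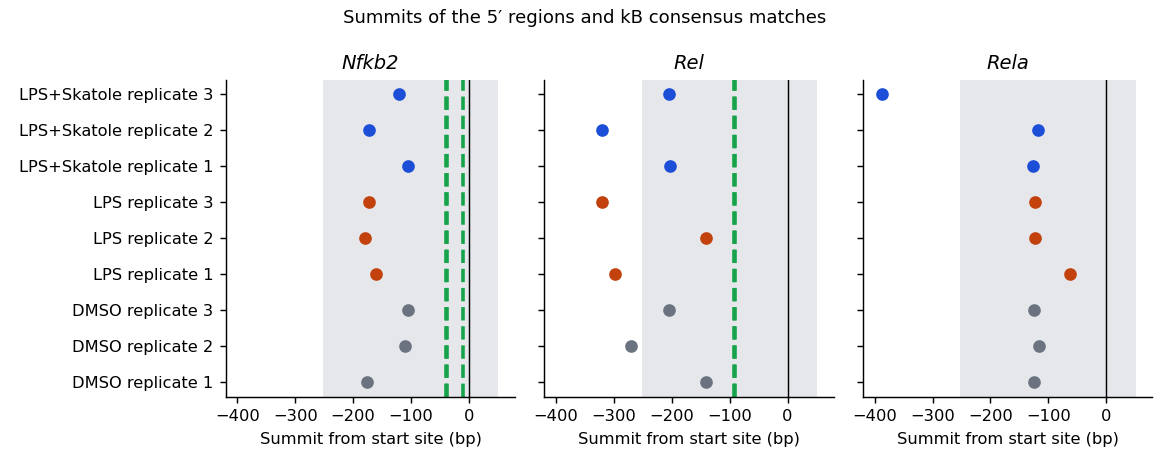
Position of the summit in each library (vertical axis) relative to the start site (horizontal axis, bp, minus values before it) at Nfkb2 (first window), Rel and Rela. Shading marks the promoter window and dashed green lines the first base of κB consensus matches; the Nfkb2 summits sit 105 to 179 bp before the start site in all groups.

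Among the 14 shared regions, the median percentile within the list was 72.8 to 77.2 with DMSO, 86.7 to 87.3 with LPS and 86.5 to 92.3 with LPS+Skatole. With lists cut to equal length, where 0 to 2 of the 14 regions had no peak left in a library and were placed at 0, it was 70.3 to 75.4, 78.5 to 80.4 and 71.7 to 84.1, and LPS+Skatole overlapped both other groups. The regions are not replicates, and these medians are a description.

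The other genes of the pathway were counted in the same way over a list of 32, among them receptors and adaptors (Tlr4, Cd14, Myd88, Irak4, Traf6), kinases (Chuk, Ikbkb, Map3k14) and inhibitors (Nfkbia, Nfkbie, Nfkbid, Tnfaip3). In LPS against DMSO, 5 were higher without overlap and 0 lower (10.9% and 0.324% of all genes). They were the inhibitors Nfkbie, with 7.67 against 4.33 peaks, and Tnfaip3, with 6.33 against 4.33, the ubiquitin ligases Traf6, with 3.0 against 0.667, and Birc3, with 5.67 against 3.67, and the LPS coreceptor Cd14, with 6.33 against 3.67. In LPS+Skatole against LPS, 1 was higher, the nuclear inhibitor Nfkbid with 8.67 against 6.33 peaks, and 0 lower (8.11% and 0.69% of all genes). In LPS+Skatole against DMSO, 10 were higher and 0 lower (22.7% and 0.155%). The median difference of the 32 genes was 1.5, 0.667 and 2.33 peaks in the 3 comparisons, beside 0.333, 0.333 and 1 over all genes. Per 10000 peaks of the list it was 0.0128, -0.131 and -0.158, beside 0 over all genes in each. Per 10000 peaks of the list the counts were 1 higher and 5 lower (4.77% and 7.01% of all genes), then 0 and 7 (4.24% and 9.09%), then 0 and 8 (6.16% and 11.8%). Of the 5 genes named as higher under LPS, Traf6 alone was higher on this measure. At least 1 region was gained at 7 of the 32 in LPS against DMSO (8.65% of all genes), at 2 in LPS+Skatole against LPS (4.55%) and at 7 in LPS+Skatole against DMSO (13.9%). At least 1 was lost at 0, 1 and 0 of them in the same order (0.484%, 1.27% and 0.548% of all genes).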

How the data were processed

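Peaks of p65 CUT&Tag were called by the authors in each library and deposited as 9 lists (3 DMSO, 3 LPS, 3 LPS+Skatole). Each deposited row gives a score, a fold (ratio of summit pileup to local background), a −log10 p, a −log10 q and positions. The submitters' processing notes name mm10, fastp 0.20.1, HISAT2 2.1.0 and StringTie 2.0 without roles; the peak caller and the use of a control are not given in the sources used here. Every list ended at a −log10 p of 5. The deposited score, 10 times the −log10 p without decimals in nearly all rows, was not used.

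Summit counts were recovered from the authors' fold, taken as (count + 1)/(background + 1), and the −log10 p of a Poisson tail. They came out whole (within 0.05) for 99.99% or more of the peaks, and the script was tested on simulated data. The lowest background of a list was taken as its relative depth. Peaks of all lists on the autosomes, X and Y that shared at least 1 bp were merged into regions. Numbers of peaks per gene were tested by exact permutation (two-sided) with Benjamini-Hochberg adjustment over 21883 genes, and scaled log2 summit counts with limma 3.58.1 (R 4.3.3, robust empirical Bayes, 1 fit over the 9 libraries, all regions called in 9 libraries, adjusted p under 0.05). The remaining steps used Python 3.11.15. All 5 genes were named, with every region found in 9 libraries or gained or lost between groups. The genes and lists were chosen with earlier results of these data known. Alternatives were thinning to equal background, equal list length, a −log10 p of at least 10, other windows and overlaps, other measures and scalings, the replicate number as a block and leaving out each library; limma-trend and peaks per 10000 peaks of the list were chosen after seeing the data.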

Additional observations from a re-analysis of the deposited data

How the results depend on the processing

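Total reads and the Blank sample were not analysed here, strand and exons were not in the gene table used, and 3 libraries a group cannot give an exact p under 0.1. The promoter windows gave the strand of Nfkb2, Rel and Rela only, so the 5′ ends stated for Nfkb1 and Relb do not rest on them. Across the alternatives, 217 values of main results were recomputed, of which 190 stayed within 1 SD between replicates or, for counts of regions, within 1.5 times, and 27 moved. Counts that were 0 in full and stayed at 0, such as member regions called lower, are among the 190. Of 419 values for single genes and regions, 389 kept direction and side of the threshold. The cause of these shifts was not tested.

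The ratio of peaks at the 5 genes moved for LPS against DMSO to 1.45 with equal list length, 1.51 after thinning and 1.35 per 10000 peaks. For LPS+Skatole against LPS it moved to 0.780 with equal list length and 0.747 per 10000 peaks, and for LPS+Skatole against DMSO to 1.13 and 1.006. Regions gained under LPS (all regions in brackets) numbered 2 after thinning (1509, from 2314) and 11 when 2 of 3 libraries sufficed (8647). That rule gave 3 gained and 4 lost in LPS+Skatole against LPS (7641 and 2859) and 11 gained in LPS+Skatole against DMSO (14258). Without single libraries, 5 to 8 regions were gained in LPS against DMSO (8 without LPS replicate 3). In LPS+Skatole against DMSO it was 4 to 7 (7 without LPS+Skatole replicate 3). LPS+Skatole against LPS, with 0 either way in full, had 1 gained and 2 lost without LPS replicate 3. Without LPS+Skatole replicate 3 it had 1 gained and 1 lost. It had 1 lost without LPS replicate 1 or 2, and 1 gained without LPS+Skatole replicate 1 or 2. With the authors' fold, 0 member regions were called for LPS against DMSO, with 1 at an unadjusted limma p under 0.05, and 13 higher and 7 lower over all 13824 regions. With equal list length, member regions with no peak left placed at 0, the differences of the median percentile were 6.64, -0.945 and 5.70 in LPS against DMSO, LPS+Skatole against LPS and LPS+Skatole against DMSO. With the median of all summits of a region, the median range of summit positions was 899.8 bp, against 463.5 bp with the highest summit.

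Differences in peaks per gene that did not pass a test and changed sign were, for LPS+Skatole against LPS, Nfkb1 at 1.67 after thinning, Rel at -1.33 with equal list length, -0.33 at the stricter threshold and -0.24 per 10000 peaks, Rela at -0.67 with equal list length and in the gene body, and Relb at -0.33 with equal list length and after thinning and -0.0381 per 10000 peaks. For LPS+Skatole against DMSO they were Nfkb2 at 0.67 at the stricter threshold, Rela at -0.33 and Relb at -0.67 with equal list length, and Relb at -0.33 after thinning and -0.27 per 10000 peaks. Without single libraries, Nfkb1 ranged from -2.17 to 1.33 for LPS+Skatole against LPS and Nfkb2 from -1.0 to 0.5 for LPS+Skatole against DMSO.

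For the summit signal in LPS against DMSO, the sign changed with the authors' fold at the Nfkb1 region 63.4 kb inside the gene (-0.0691), at the Nfkb2 (-0.0417) and at the Rela start site region (0.0271), with genome background scaling at Nfkb2 (-0.0529), and with percentile ranks at Rela (0.37 percentile points) and Relb (0.0796). In LPS+Skatole against LPS it changed with genome background scaling at Rel (0.0449) and Relb (0.0289). Without single libraries, LPS against DMSO ranged from -0.139 to 0.081 at Rela and from -0.179 to 0.0331 at Relb. None of these passed the limma test in any setting. The Nfkb1 region 21.2 kb inside the gene stayed between 1.54 and 1.86 without single libraries.

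Libraries that share a replicate number did not deviate together (correlations of -0.0096 to 0.0141 over 13824 regions). With the replicate block, the Nfkb1 region gave 1.66 with a limma adjusted p of 0.00764 for LPS against DMSO, and the difference of 15.3 Nfkb1 peaks an exact sign-flip p of 0.25, the smallest of 3 pairs. The block moved the calls over all regions for LPS against DMSO from 63 higher and 13 lower to 43 and 4, limma-trend to 198 and 95, genome background scaling to 38 and 78, and leaving out single libraries to between 19 and 1 (without LPS replicate 1) and 52 and 12 (without LPS+Skatole replicate 3).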
